A study of Mus musculus with 9 samples.

Results

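Expression of 5 lncRNA genes was followed in the mouse trigeminal ganglion (TG) after inflammation of the temporomandibular joint (TMJ): Malat1 and Neat1, which are neighbours on chromosome 19, and the imprinted genes Meg3, Rian and Mirg on chromosome 12. They were chosen by name. Every transcript listed for these genes in the deposited lncRNA table was taken by its Ensembl identifier, which gave 51 of 15657 transcripts and 5 of 9945 annotated genes. Of the 51 transcripts, 41 had a mean of at least 0.1 FPKM (fragments per kilobase, a level corrected for transcript length and sequencing depth) and were tested, and 2 were listed at 0 in all 9 libraries. The libraries were made from male C57BL/6 mice of 8 weeks, labelled WT, that received 10 µl into the TMJ on one side. Saline libraries (replicates 1 to 3) came from mice given saline and are labelled day 3. CFA3D libraries (replicates 1 to 3) came from mice given complete Freund's adjuvant (CFA, 5 mg/ml), an emulsion that provokes local inflammation, and sampled on day 3. CFA6D libraries (replicates 4 to 6) came from mice given the same CFA and sampled on day 6. Each library pooled TG tissue of 3 mice, so n = 3 pools per group, and no day 6 saline group was analysed here, so that CFA and day cannot be told apart in CFA6D against saline. The comparisons ask how the TG transcriptome differs from saline in the acute phase (CFA3D) and as the inflammation proceeds (CFA6D).

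Malat1 and Neat1 are abundant RNAs that stay in the nucleus. Malat1 gathers in nuclear speckles, bodies rich in splicing factors, and the long form of Neat1 is the scaffold on which paraspeckles are built. Malat1 and the long form of Neat1 are cut at their 3′ end by the tRNA-processing enzyme RNase P, lack a poly(A) tail and are protected by a triple helix formed by U-rich stretches and an A-rich stretch, whereas the short form of Neat1 is polyadenylated. Meg3, Rian and Mirg lie in the Dlk1-Dio3 domain and are expressed from the maternal chromosome, whereas the coding genes Dlk1, Rtl1 and Dio3 of the same domain are expressed from the paternal one. Rian is the host of many snoRNAs and Mirg of many miRNAs, and both are thought to be made as part of one long transcript that starts at Meg3. The cluster is known for high expression in neurons and in the pituitary.

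The depth behind the FPKM scale, estimated from the step at which low FPKM values pile up, was 30.004 to 42.197 M read pairs per library. By this estimate a single pair gave a 1 kb transcript 0.0237 to 0.0333 FPKM. It is not the number of sequenced reads that the study reports, and the read pairs given below rest on it. All 10 sensory neuron markers were detected, with sums between 2438 and 3676 FPKM, so the tissue carried the markers of its label. Several libraries stood apart. The 7 pituitary markers (Gh, Prl, Pomc, Cga, Lhb, Tshb and Pou1f1) summed to 10672 FPKM in saline replicate 3, to 1116 in CFA6D replicate 4 and to 409 in CFA6D replicate 5, against 8.93 to 99.8 in the other 6 libraries. The 6 skeletal muscle markers summed to 136.8 FPKM in saline replicate 2 and 54.8 in CFA6D replicate 6, against 1.17 to 31.4 elsewhere, and the 5 brown adipocyte markers to 132.6 in saline replicate 2 against 6.01 to 11.5 elsewhere. In CFA6D replicate 4, a predicted transcript without a gene name (MSTRG.2605.1) had 62081 FPKM, which was 88.4% of its whole lncRNA table, against 12.6 to 288.7 FPKM in the other 8 libraries. In these bulk samples, fewer cells of a type and less RNA per cell cannot be told apart.

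Malat1 (ENSMUSG00000092341, chr19:5795690-5802672 on the minus strand, GRCm38) was the highest of all annotated lncRNA gene sums, a gene sum being the FPKM of all its transcripts in the table added. The sum was 2046, 2179.7 and 2181 FPKM in saline replicates 1, 2 and 3, 2251, 2354 and 2296 in CFA3D, and 2292, 2367 and 2083 in CFA6D replicates 4, 5 and 6. All CFA3D libraries lay above all saline libraries, while the CFA6D libraries overlapped with both. A single transcript, ENSMUST00000172812 of 6983 bases and 1 exon, held 99.99% of the sum on average, behind which stood 438526 to 663150 read pairs per library. The 3 shorter spliced forms reached at most 0.399 FPKM in any library and were not tested.

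Neat1 (ENSMUSG00000092274, chr19:5824708-5845478, minus strand) ranked 16 among the lncRNA gene sums. It was at 30.6, 29.3 and 29.3 FPKM in saline, at 32.0, 31.8 and 27.1 in CFA3D and at 30.4, 40.3 and 33.1 in CFA6D. The highest value was that of CFA6D replicate 5, and the groups overlapped. The paraspeckle-building form of 20771 bases, ENSMUST00000173672, held 86.5% of the sum. It was at 27.2, 25.2 and 25.2 FPKM in saline, at 26.4, 28.6 and 23.3 in CFA3D and at 26.5, 35.2 and 27.8 in CFA6D. The shorter forms at the 5′ end, ENSMUST00000174287 and ENSMUST00000174829, had 1.40 to 3.05 and 1.35 to 2.94 FPKM. Together they held 9.88% to 17.6% of the sum, and this share was 13.1% ± 1.78 (SD, n = 3) in saline, 13.8% ± 3.87 in CFA3D and 13.7% ± 1.92 in CFA6D. Neither form has a base of its own, since all of their bases also lie in the long form or in each other, so their FPKM depends on how shared reads were divided among the forms, although ENSMUST00000174829 has 2 exon joins of its own. The remaining form, ENSMUST00000232969, was listed at 0 in all 9 libraries. The shorter forms listed have 2 to 4 exons, and no unspliced short form is among them. Reads of such a form could not be told apart from those of the long form, which limits the share of 86.5%.

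The ends of Malat1 and of the long Neat1 form are shown because they carry the elements that set this pair apart from ordinary polyadenylated transcripts. The stretches were read from the genome on the minus strand, 5′ to 3′, at chr19:5795982-5796065 (Malat1, 84 bases) and chr19:5824708-5824797 (Neat1, 90 bases), with the U-rich and A-rich runs that both share in capitals, T standing for U:

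Malat1: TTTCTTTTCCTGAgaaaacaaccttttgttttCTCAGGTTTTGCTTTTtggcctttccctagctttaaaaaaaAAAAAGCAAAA
Neat1: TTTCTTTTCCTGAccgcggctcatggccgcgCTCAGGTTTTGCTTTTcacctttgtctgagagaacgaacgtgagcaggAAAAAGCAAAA
The 3 capital runs, TTTCTTTTCCTGA, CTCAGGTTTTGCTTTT and AAAAAGCAAAA, are all the runs of at least 11 bases that the last 400 bases of both transcripts share, and each occurs 1 time in either transcript. In the annotated transcripts of the lncRNA table, searched on the strand of the transcript, all 3 in this order within 200 bases occurred in 2 of 15370 (0.013%), which were these 2. The runs were taken from these 2, so both hold them by choice. The count covers exact matches only and says nothing of similar elements elsewhere. The annotated Neat1 form ends exactly with the last run, whereas the annotated Malat1 form goes on for 292 bases, so reads from both sides of that point are counted in its FPKM.

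Meg3 (ENSMUSG00000021268, chr12:109541001-109571726, plus strand) ranked 3 among the lncRNA gene sums. It was at 228.9, 241.6 and 349.7 FPKM in saline, at 256.3, 192.7 and 271.8 in CFA3D and at 278.9, 261.7 and 251.7 in CFA6D. Saline replicate 3 was the highest and CFA3D replicate 2 the lowest of the 9, and the coefficient of variation over all libraries was 16.4%, against 5.09% for Malat1. The 11 transcripts of Meg3 all passed the minimum. The highest, ENSMUST00000129245, held 33.9% of the sum and was at 63.1, 85.4 and 110.9 FPKM in saline, at 87.5, 67.7 and 103.2 in CFA3D and at 98.7, 91.6 and 82.1 in CFA6D. The longest, ENSMUST00000146701 of 14548 bases, followed with 49.7 to 75.3 FPKM, and 73.6% of its bases lie in no other Meg3 transcript. ENSMUST00000128458 was at 64.1 FPKM in saline replicate 3 and at 27.6 to 40.2 in the other 8 libraries. The least even of the well-expressed forms was ENSMUST00000124106, named after its values were seen, with 21.2, 4.13 and 13.8 FPKM in saline, 5.39, 2.15 and 4.95 in CFA3D and 3.08, 4.19 and 14.9 in CFA6D.

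Rian (ENSMUSG00000097451, chr12:109603940-109661716, plus strand) was at 37.4, 38.6 and 45.0 FPKM in saline, at 34.7, 42.3 and 38.3 in CFA3D and at 37.1, 34.1 and 36.8 in CFA6D. All CFA6D libraries lay below all saline libraries, though CFA6D replicate 4 and saline replicate 1 were within 1 FPKM of each other. It has 20 transcripts in the table, of which 17 passed the minimum, and the most abundant were ENSMUST00000182088 (6.20 to 13.0 FPKM), the unspliced ENSMUST00000182406 (5.74 to 8.14) and ENSMUST00000182238 (2.42 to 8.86). Mirg (ENSMUSG00000097391, chr12:109729764-109749460, plus strand) was at 18.8, 22.8 and 28.5 FPKM in saline, at 20.9, 18.8 and 21.6 in CFA3D and at 23.2, 20.8 and 23.5 in CFA6D. The highest was again saline replicate 3, and the groups overlapped. Of its 12 transcripts 9 passed the minimum, led by ENSMUST00000181496 (5.41 to 7.43 FPKM), ENSMUST00000182074 (3.90 to 4.87) and ENSMUST00000182300 (0.48 to 3.87). ENSMUST00000182231, also named after its values were seen, was at 3.78 FPKM in saline replicate 3 and 3.30 in CFA6D replicate 6, and at 0.0879 to 0.354 in the other 7.

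Per length of transcript, the order of the levels was Malat1, Meg3, Rian, Neat1 and Mirg by the mean over 9 libraries (2228, 259.3, 38.3, 31.5 and 22.1 FPKM). Malat1 was above Meg3, and Meg3 above the other 3, in 9 of 9 libraries. Rian and Neat1 were each above Mirg in 9 of 9, Neat1 by 1.03 to 1.94 times, although the ranges of Neat1 (27.1 to 40.3 FPKM) and Mirg (18.8 to 28.5) over the libraries overlapped. Rian was above Neat1 in 8 of 9, the exception being CFA6D replicate 5, and its range (34.1 to 45.0 FPKM) overlapped with that of Neat1. Within a library, Neat1 was 0.65 to 1.18 times as high as Rian, with a median of 0.82, and their order was not tested. Malat1 was 6.24 to 12.2 times as high as Meg3, with a median of 8.78 times. Meg3 was 10.3 to 12.6 times as high as Mirg and 4.56 to 7.77 times as high as Rian. The ratio of Mirg to Meg3 was the steadier of these, at 8.60% ± 0.718 (SD, n = 3) in saline, 8.61% ± 0.991 in CFA3D and 8.53% ± 0.705 in CFA6D.

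**Figure D1:**
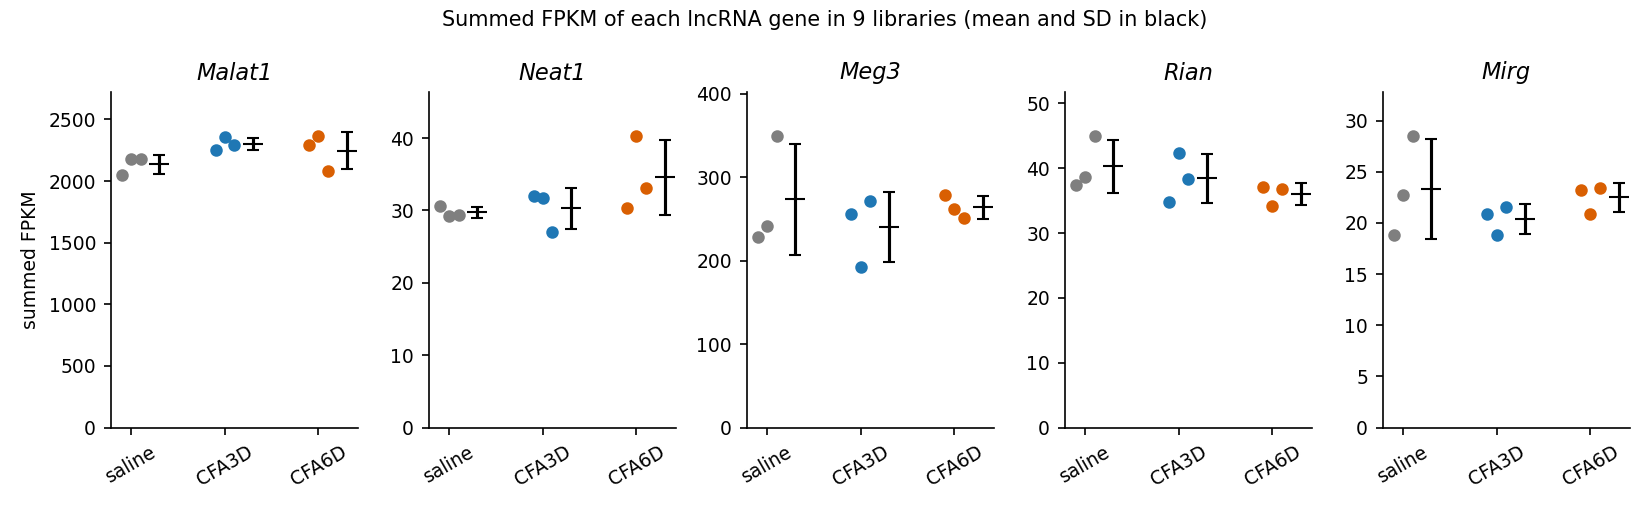
Summed FPKM (y axis, from 0) of each gene in 9 libraries by group (x axis), with 1 point per library and the mean and SD of 3 libraries in black. The 3 CFA3D points of Malat1 lie above its saline points, the 3 CFA6D points of Rian lie below its saline points, and the highest Meg3 and Mirg points are those of 1 saline library.

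None of the 5 gene sums had an unadjusted p under 0.05 in any of the 4 comparisons (limma on log2(FPKM + 0.1)), and none had an adjusted p under 0.05, which 0%, 0.0485%, 0.0727% and 0% of all gene sums had (CFA3D, CFA6D, CFA6D against CFA3D, both days). Among all 4127 lncRNA gene sums tested, 3.76% had an unadjusted p under 0.05 for CFA3D against saline, 7.71% for CFA6D against saline, 5.84% for CFA6D against CFA3D and 5.52% for both CFA days against saline. The median log2 difference of all gene sums was 0.019, -0.012, -0.022 and -0.0022 in the same order. Malat1 differed from saline by 0.11 on the log2 scale at CFA3D (95% interval -0.10 to 0.32) and by 0.07 at CFA6D (-0.14 to 0.28). Groups that did not overlap in the higher direction at CFA3D, as for Malat1, were seen in 4.19% of all gene sums. The exact permutation test over libraries (two-sided) gave p = 0.1 for this difference, which is the smallest p that 3 against 3 allows, and p = 0.0952 for both CFA days against saline, where the smallest is 0.0238. Neither adjusted value over the 20 such tests was below 0.667. Neat1 differed from saline by 0.02 at CFA3D (-0.26 to 0.30) and by 0.21 at CFA6D (-0.07 to 0.49). Without CFA6D replicate 5, the CFA6D difference was 0.09, and after quantile normalization it was 0.26 with an unadjusted p of 0.0362 in limma.

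The 3 genes of the imprinted cluster had mean levels below saline on both days, by 0.02 to 0.18 on the log2 scale, and each 95% interval included 0. Meg3 differed by -0.18 at CFA3D (-0.55 to 0.20) and by -0.02 at CFA6D (-0.40 to 0.35). Mirg differed by -0.18 (-0.50 to 0.15) and -0.04 (-0.36 to 0.29). Rian differed by -0.07 (-0.33 to 0.19) and -0.16 (-0.42 to 0.10). In the case of Rian at CFA6D, where the groups did not overlap, 6.74% of all gene sums were apart in this direction, and the exact permutation p was 0.1, the smallest possible. CFA6D against CFA3D gave 0.15 for Meg3 (-0.22 to 0.53), 0.14 for Mirg (-0.19 to 0.47), 0.18 for Neat1 (-0.10 to 0.47), -0.04 for Malat1 (-0.24 to 0.17) and -0.09 for Rian (-0.35 to 0.17). The 95% intervals of the 5 genes reached from -0.55 (Meg3 at CFA3D) to 0.53 (Meg3, CFA6D against CFA3D) at the widest. A change by 1 on the log2 scale in either direction thus lies outside all of them. Differences within the interval of a gene could not be told apart from the spread between pools.

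**Figure D2:**
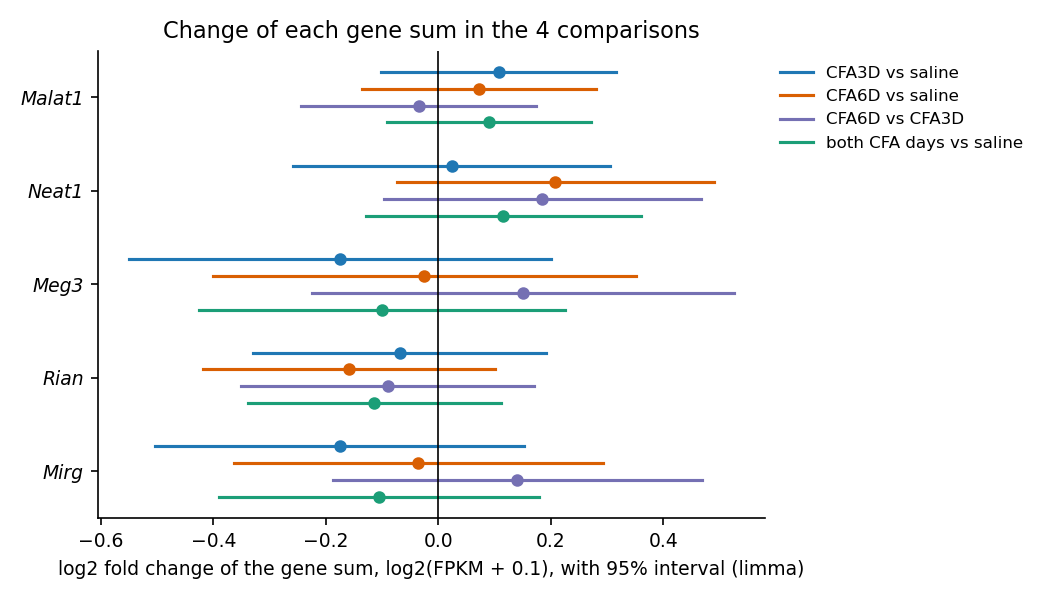
Difference of each gene sum on the log2(FPKM + 0.1) scale (x axis) in the 4 comparisons (colours), with the 95% interval from limma as a line. Every interval includes 0, the widest belong to Meg3 and the narrowest to Malat1.

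The Meg3 and Mirg differences depended on saline replicate 3, the library with the highest pituitary marker sum. Without it, the log2 difference of Meg3 was 0.02 at CFA3D and 0.17 at CFA6D, and that of Mirg -0.02 and 0.12, with no unadjusted p under 0.05 in limma. Without saline replicate 1, Mirg was at -0.32 at CFA3D with an unadjusted p of 0.0462 in limma. Without saline replicate 3, Rian was at 0.01 at CFA3D and -0.08 at CFA6D. Saline replicate 3 had the highest sum of these markers and the highest Meg3, Rian and Mirg. CFA6D replicate 4, with the second highest marker sum, had the second highest Meg3, but its Rian (37.1 FPKM) and Mirg (23.2) did not stand out. CFA6D replicate 5, with the third highest marker sum, had 261.7 FPKM of Meg3, 20.8 of Mirg and the lowest Rian of all libraries (34.1). Dlk1, the paternally expressed growth regulator of the domain that pituitary cells also make, was at 21.9 FPKM in saline replicate 3, 2.73 in CFA6D replicate 4 and 1.51 in CFA6D replicate 5, against 0.416 to 0.760 in the other 6 libraries. The part of pituitary RNA in the levels of Meg3, Rian and Mirg was not tested.

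**Figure D3:**
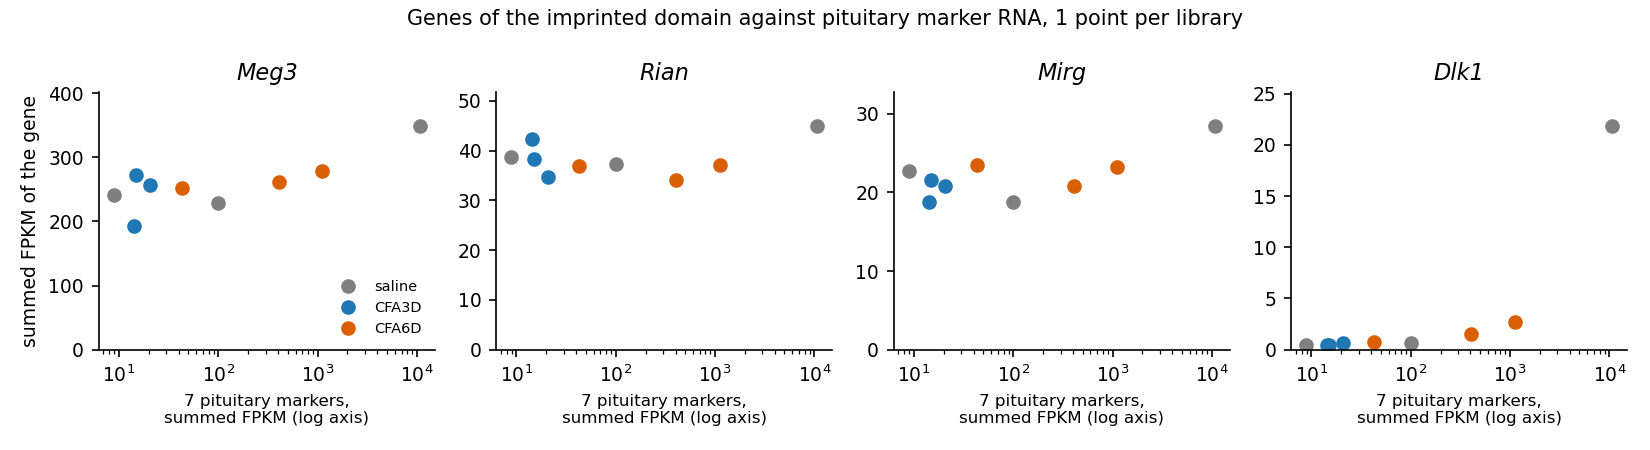
Summed FPKM of Meg3, Rian, Mirg and Dlk1 (y axes, from 0) against the summed FPKM of 7 pituitary markers (x axis, log scale), with 1 point per library coloured by group. Saline replicate 3, at 10672 FPKM of pituitary markers, is the highest point of all 4 panels, and in the 7 libraries with lower marker sums than CFA6D replicate 4 Meg3 spans 192.7 to 271.8 FPKM.

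Across the 9 libraries, Meg3 and Mirg had Pearson's r = 0.868 (exact permutation p = 0.00505, 0.0505 after adjustment over 10 pairs of members) and Spearman's rho = 0.667 (exact p = 0.0589, adjusted 0.294). After leaving out saline replicate 3 and CFA3D replicate 2, which lie farthest from the median of Meg3, r was 0.514, so the relation rests largely on these libraries. Meg3 and Rian had r = 0.176 (exact p = 0.645), and Malat1 and Neat1 r = 0.270 (exact p = 0.503). Neat1 and Rian had r = -0.53 (exact p = 0.147, adjusted 0.734) and rho = -0.70 (exact p = 0.0433, adjusted 0.294), and r was -0.46 without CFA3D replicate 3 and CFA6D replicate 5. No adjusted p of the 10 pairs was below 0.05.

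At the level of single transcripts, 1 of the 41 tested had an unadjusted p under 0.05 for CFA3D against saline (4.02% of all 5672 lncRNA transcripts tested), 2 for CFA6D against saline (6.73% of all), 5 for CFA6D against CFA3D (5.84% of all) and 1 for both CFA days against saline (5.38% of all). They were 6 different transcripts, 3 of Rian, 2 of Mirg and 1 of Meg3, and none reached an adjusted p under 0.05, which 0.0176% of all transcripts had for CFA6D against CFA3D and 0% in the other comparisons. Malat1 and Neat1 had none at either threshold. Transcripts of a gene share reads and are not independent.

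Rian ENSMUST00000182737 was at 0.444, 0.507 and 0.426 FPKM in saline and at 0.335, 0.381 and 0 in CFA3D, and was listed at 0 in all 3 CFA6D libraries. About 9.53 to 11.96 read pairs stood behind each saline value. Each saline value was above all 6 CFA values, as in 1.27% of all transcripts, and limma gave an unadjusted p of 0.00120 for CFA6D against saline (adjusted 0.340) and of 0.00435 for both CFA days against saline (adjusted 0.704). Both stayed under 0.05 with any 1 of the 9 libraries left out. CFA6D against CFA3D had an unadjusted p of 0.0232, which was 0.0893 without CFA3D replicate 1 and 0.0938 without CFA3D replicate 2 (limma). No fold is given against a group listed at 0.
This transcript of 699 bases and 5 exons has no base and no exon join of its own. Exon 3 has 15 bases, chr12:109652701-109652715, and occurs in 2 of the 20 Rian transcripts, the other being ENSMUST00000182088, the most abundant. It is shown with 30 bases of the exons on each side, the small exon in capitals, since it is the feature that links both forms:

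Rian small exon: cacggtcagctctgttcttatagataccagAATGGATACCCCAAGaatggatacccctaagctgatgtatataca
The small exon begins with the same run of bases as the exon after it, so reads that reach only its start could fit either. How this bears on the values of both forms was not tested. ENSMUST00000182088 itself was at 8.004, 7.40 and 13.0 FPKM in saline, 9.13, 9.13 and 9.03 in CFA3D and 9.06, 6.20 and 7.99 in CFA6D, with a log2 difference of -0.25 at CFA6D (95% interval -0.76 to 0.25).

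Rian ENSMUST00000181527, whose 8 exons lie in the middle of the gene, was at 3.22, 3.33 and 5.32 FPKM in saline, 3.31, 2.70 and 2.74 in CFA3D and 1.22, 2.47 and 3.04 in CFA6D. This form has no base and no exon join of its own, so its FPKM depends on how shared reads were divided. All CFA6D values were below all saline values, as in 6.06% of all transcripts, with a log2 difference of -0.84 ± 0.32 (SE, limma) and an unadjusted p of 0.0265. Without saline replicate 3 this was -0.61 with an unadjusted p of 0.105 in limma, and without CFA6D replicate 4 it was -0.47 with one of 0.0877. Rian ENSMUST00000182119, a short form at the 5′ end, was at 1.96, 4.45 and 0.976 FPKM in saline, 1.31, 5.40 and 2.12 in CFA3D and 0.782, 0.369 and 1.28 in CFA6D. Of its 329 bases, 7 lie in no other Rian transcript. The CFA6D values lay below those of CFA3D, as in 6.73% of all transcripts, by a log2 difference of -1.64 ± 0.64 (SE) with an unadjusted p of 0.0298 in limma. It no longer passed without CFA3D replicate 2 (-1.09), CFA3D replicate 3, CFA6D replicate 4 or CFA6D replicate 5 (unadjusted p of 0.0507 to 0.1198 in limma). The unspliced Rian ENSMUST00000182406, which has 86.8% of its bases to itself, was at 5.98, 5.99 and 5.77 FPKM in saline, 6.01, 6.38 and 5.74 in CFA3D and 7.16, 6.24 and 8.14 in CFA6D. Its CFA6D values were all above its saline values, with a log2 difference of 0.27 (95% interval -0.03 to 0.57) that did not pass the test. Groups apart in the higher direction made up 5.78% of all transcripts in this comparison.

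Both Mirg transcripts with an unadjusted p under 0.05 end in the last exons of the gene. Neither has a base of its own, so their FPKM depends on how shared reads were divided. ENSMUST00000182300 has no exon join of its own either, while ENSMUST00000183068 has 2. ENSMUST00000182300 was at 1.05, 3.24 and 3.48 FPKM in saline, 1.24, 0.480 and 2.34 in CFA3D and 3.05, 2.68 and 3.87 in CFA6D. All CFA6D values were above all CFA3D values, as in 5.32% of all transcripts, with a log2 difference of 1.40 ± 0.55 (SE) and an unadjusted p of 0.0319 in limma. It no longer passed without CFA3D replicate 1, CFA3D replicate 2 (0.85), CFA6D replicate 4 or CFA6D replicate 6 (unadjusted p of 0.0558 to 0.125 in limma). ENSMUST00000183068 was at 0.437, 1.44 and 2.31 FPKM in saline, 0.605, 0.474 and 0.438 in CFA3D and 1.03, 1.59 and 1.23 in CFA6D. CFA6D was above CFA3D by 1.18 ± 0.47 (SE, unadjusted p = 0.0317 in limma), and CFA3D differed from saline by -1.07 with an unadjusted p of 0.0478 in limma. The last difference passed with the 9 libraries and without saline replicate 1 (-1.68, unadjusted p of 0.000242 in limma), and did not pass with any 1 of the other 8 left out, being -0.60 with an unadjusted p of 0.194 without saline replicate 3. CFA6D against CFA3D no longer passed without CFA3D replicate 2 or 3 or CFA6D replicate 5 or 6 (unadjusted p of 0.0619 to 0.0958 in limma). The single Meg3 form of this kind, ENSMUST00000166636, was at 1.97, 1.46 and 1.65 FPKM in saline, 1.57, 1.18 and 1.68 in CFA3D and 2.84, 2.80 and 1.71 in CFA6D. The difference between CFA6D and CFA3D was 0.67 ± 0.23 (SE) with an unadjusted p of 0.0171 in limma, and CFA6D replicate 6 stood just above the highest CFA3D value. The difference no longer passed without CFA3D replicate 2, CFA6D replicate 4 or CFA6D replicate 5 (unadjusted p of 0.0630 to 0.0644 in limma). This form made up 0.723% of the Meg3 sum, and it has no base of its own.

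Without CFA3D replicate 2, 0 transcripts had an unadjusted p under 0.05 for CFA6D against CFA3D, and without CFA6D replicate 4 there were 2. For CFA6D against saline, the count was 5 without CFA6D replicate 6, 4 without saline replicate 3 and 1 without CFA6D replicate 4. For CFA3D against saline it was 4 when saline replicate 1 was left out and 0 when saline replicate 3 was. Shares of all lncRNA transcripts with the same library left out were not computed. The most abundant transcript of each gene did not pass in any comparison. ENSMUST00000129245 of Meg3 differed by 0.01 at CFA3D (95% interval -0.50 to 0.53) and 0.11 at CFA6D (-0.41 to 0.62), ENSMUST00000173672 of Neat1 by 0.01 (-0.32 to 0.34) and 0.20 (-0.13 to 0.53), and ENSMUST00000181496 of Mirg by -0.03 (-0.36 to 0.30) and -0.12 (-0.45 to 0.21).

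**Figure D4:**
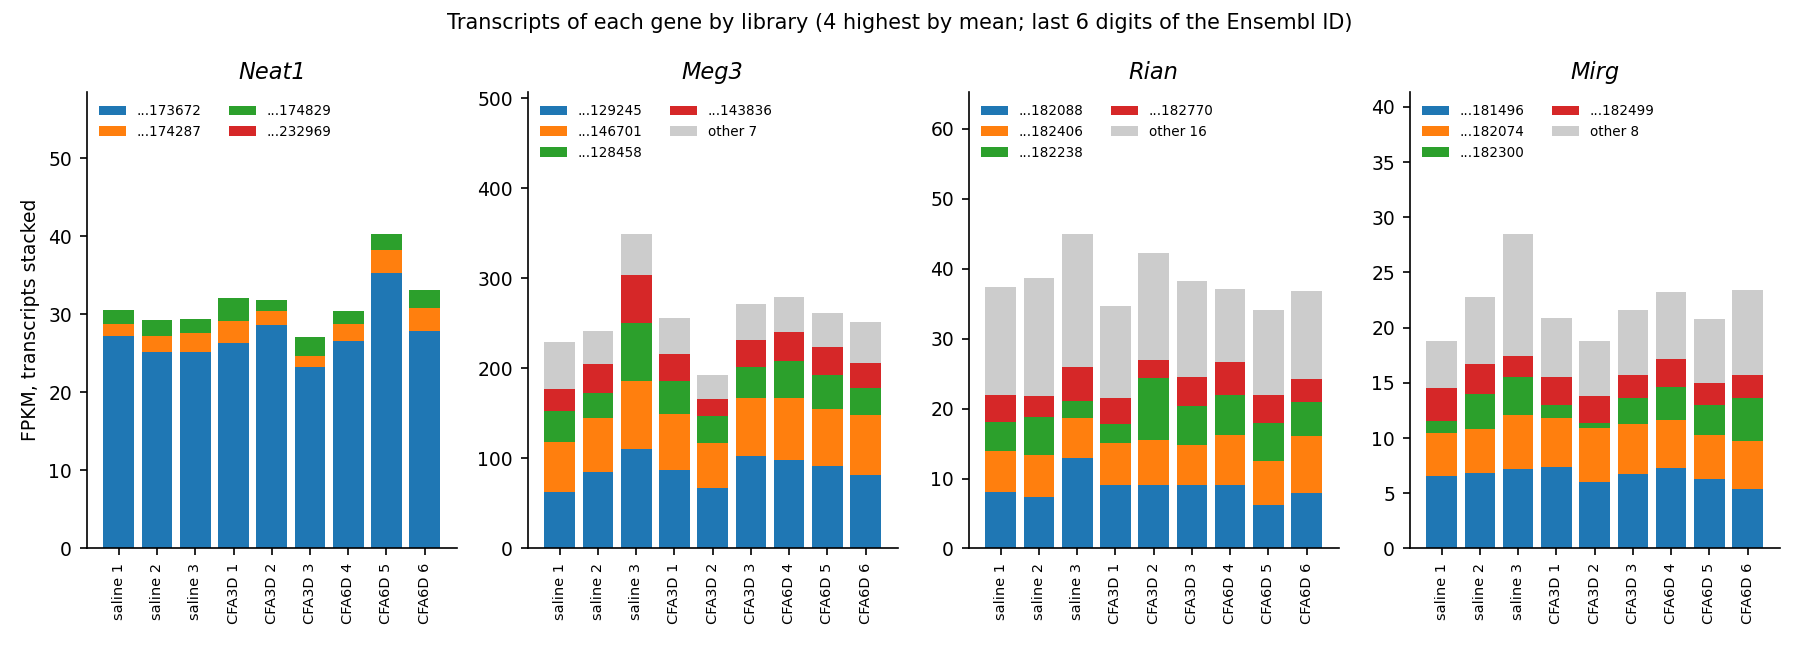
FPKM of the 4 highest transcripts of Neat1, Meg3, Rian and Mirg (colours, last 6 digits of the Ensembl identifier) stacked with the remaining ones (grey) in each of 9 libraries (x axis). The long Neat1 form, in blue, makes up most of each bar, while Meg3, Rian and Mirg are spread over several forms in every library.

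The share of the summed lncRNA FPKM taken by Malat1 was 23.0%, 26.7% and 26.2% in saline, 26.4%, 26.7% and 26.4% in CFA3D, and 3.26%, 27.5% and 25.5% in CFA6D replicates 4, 5 and 6. The low value of CFA6D replicate 4 is that of the library in which MSTRG.2605.1 fills the table, while its Malat1 level of 2292 FPKM was within the range of the other libraries. With that transcript left out of the denominator, an alternative chosen after seeing the data, the share of Malat1 was 23.7% to 28.1% over all libraries and 28.0% in CFA6D replicate 4. By the same denominator Meg3 took 2.19% to 4.21%, Rian 0.404% to 0.542%, Neat1 0.3204% to 0.478% and Mirg 0.213% to 0.343%, and the 5 genes together 27.4% to 32.6%. The mean share of Malat1 was 25.6% in saline, 27.1% in CFA3D and 27.3% in CFA6D, with exact permutation p = 0.2 and 0.3 for the CFA groups against saline. For Neat1 it was 0.356%, 0.356% and 0.420%, with exact p = 0.9 and 0.1, the latter being the smallest that 3 against 3 allows (adjusted 0.714 over the 20 tests of this kind). With MSTRG.2605.1 kept in the denominator, the mean share of Neat1 was 0.351% in saline, 0.349% in CFA3D and 0.305% in CFA6D. That of Malat1 was 25.3%, 26.5% and 18.7%, with exact permutation p = 0.5 and 0.7. Over lncRNA and mRNA together, Neat1 at CFA6D had exact permutation p = 0.7. The p of 0.1 for Neat1 was thus seen only with the denominator chosen after seeing the data. Against the lncRNA and mRNA tables together, the 5 genes took 0.864% to 1.11%. This denominator still holds MSTRG.2605.1, and the lowest value was that of CFA6D replicate 4. The next lowest was 0.929% in saline replicate 1.

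Between the start of Meg3 and the end of Mirg, the table of other noncoding RNA listed 92 small RNA loci, of which 66 were miRNA hairpins, 23 snoRNAs and 3 of other kinds. Gm37899, an unclassified transcript of 8717 bases in the same table and span, is not among them. Of these 92, 12 were at 0 in all libraries and 79 above 0 in all 9. A value above 0 is not a detection by itself, since it can stand for less than 1 read pair. Mir770, for instance, had 0.233 and Gm25357 0.00642 read pairs on average, and 61 loci reached a mean of 0.1 FPKM. Their FPKM summed to 240.3 to 304.8 per library. The libraries were made for long RNA, and 36 of the loci lie within a transcribed span of Meg3, Rian or Mirg, so reads of hairpins or snoRNAs cannot be told apart from reads of the precursor that carries them.
The highest loci were Mir341 (14.3 to 19.96 FPKM) and Mir1188 (13.6 to 18.9), which lie within Rian, and then Mir370 (7.53 to 12.2, also within Rian), Mir493 (8.15 to 12.1), Mir540 (7.90 to 12.01) and Mir337 (7.01 to 10.1), the last 3 between Meg3 and Rian. About 23.5 to 72.4 read pairs stood behind their mean values, and none of the 6 had an unadjusted p under 0.05 in any comparison. Their mature sequences, with the seed (bases 2 to 8, which pair with target RNAs) in capitals, are from RefSeq (GRCm38.p6), which matched 60 of the 66 miRNA loci by symbol and lists 112 mature sequences here:

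mmu-miR-341-5p: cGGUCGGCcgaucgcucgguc
mmu-miR-341-3p: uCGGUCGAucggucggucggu
mmu-miR-1188-5p: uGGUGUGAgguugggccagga
mmu-miR-1188-3p: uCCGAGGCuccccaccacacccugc
mmu-miR-370-5p: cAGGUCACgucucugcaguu
mmu-miR-370-3p: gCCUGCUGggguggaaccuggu
mmu-miR-493-5p: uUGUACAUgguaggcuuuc
mmu-miR-493-3p: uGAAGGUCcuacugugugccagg
mmu-miR-540-5p: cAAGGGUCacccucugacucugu
mmu-miR-540-3p: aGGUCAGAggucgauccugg
mmu-miR-337-5p: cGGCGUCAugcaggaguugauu
mmu-miR-337-3p: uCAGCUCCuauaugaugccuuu
The 112 sequences have 102 different seeds, and 10 seeds are shared by 2 sequences each. Of the sequences above, mmu-miR-370-5p shares its seed with mmu-miR-1193-3p, which lies nearer to Mirg.

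**Figure D5:**
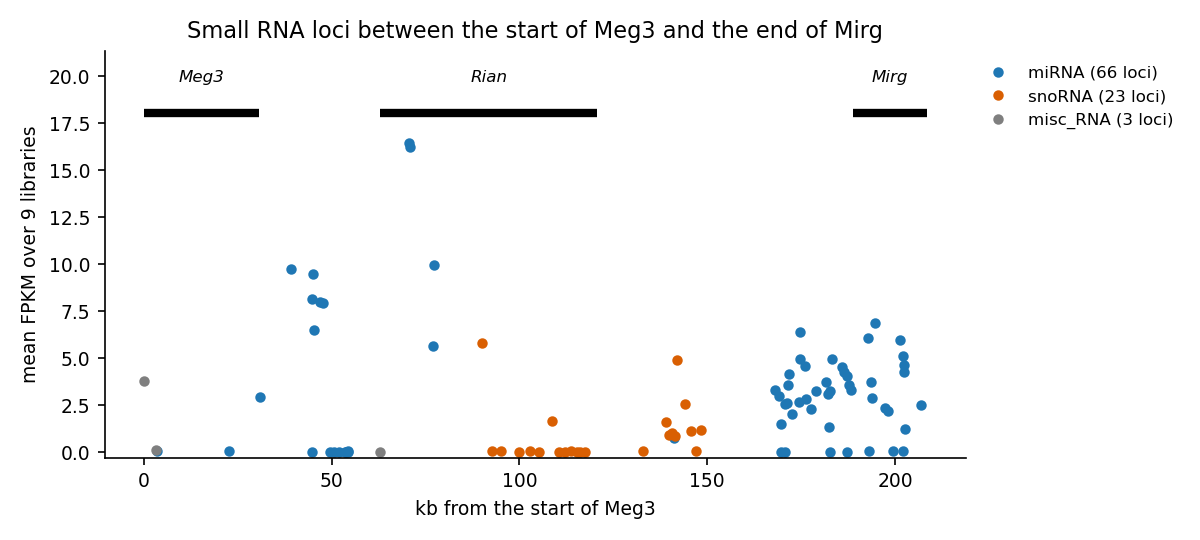
Mean FPKM over 9 libraries (y axis) of each small RNA locus against its distance from the start of Meg3 in kb (x axis), coloured by type, with the spans of Meg3, Rian and Mirg as black bars. The highest 2 loci (70.5 and 70.8 kb) lie within Rian, and a dense group of miRNA loci lies before and within Mirg.

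Of the 61 loci with a mean of at least 0.1 FPKM, 2 had an unadjusted p under 0.05 for CFA3D against saline (4.44% of all 7989 other noncoding transcripts tested), 2 for CFA6D against saline (6.37% of all), 4 for CFA6D against CFA3D (5.44% of all) and 2 for both CFA days against saline (5.18% of all). None had an adjusted p under 0.05, which 0%, 0.0501%, 0.0501% and 0.0125% of all these transcripts had in the same order. The loci are Mir487b, Mir323, Mir411, Mir3072, Mir379 and the snoRNA Gm25224, named here because they are few, after their values were seen.
Mir487b was at 3.23, 4.81 and 3.35 FPKM in saline, 5.20, 5.55 and 5.95 in CFA3D and 3.28, 3.05 and 3.99 in CFA6D. All CFA3D values were above the others, by a log2 difference of 0.56 against saline (unadjusted p = 0.0119 in limma) and with -0.69 for CFA6D against CFA3D (unadjusted p = 0.00383). Of all other noncoding transcripts, 4.54% were apart in this direction between CFA3D and saline and 7.02% between CFA6D and CFA3D.
Mir379 was at 2.13, 3.41 and 4.74 FPKM in saline, 2.29, 2.01 and 2.69 in CFA3D and 4.32, 4.10 and 3.93 in CFA6D, with 0.80 for CFA6D against CFA3D (unadjusted p = 0.0108 in limma). Mir411 was at 3.84, 3.47 and 2.97 FPKM in saline, 3.34, 2.48 and 2.87 in CFA3D and 2.69, 2.57 and 2.46 in CFA6D, with -0.39 at CFA6D against saline (unadjusted p = 0.0352 in limma). About 8.10 read pairs for Mir379 and 8.92 for Mir411 stood behind their mean values. Their hairpins start 168.1 and 169.2 kb after the start of Meg3, and their 3p arms share a seed:

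mmu-miR-379-3p: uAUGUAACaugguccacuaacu
mmu-miR-411-3p: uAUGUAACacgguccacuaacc
Mir3072 was at 5.03, 3.87 and 0.0184 FPKM in saline, 5.18, 3.09 and 5.30 in CFA3D and 0.0146, 0.0237 and 0.0226 in CFA6D. The unadjusted p was 0.0140 for CFA6D against saline and 0.00127 for CFA6D against CFA3D (adjusted 0.597, limma). The 4 low libraries, saline replicate 3 and all of CFA6D, are at less than 1 read pair, while the mean over 9 libraries was 7.42 pairs. The hairpin, chr12:109747878-109747960, ends just before the first exon of Mirg ENSMUST00000182300, which starts at 109747964, and the values of that transcript in the same 4 libraries were 3.48, 3.05, 2.68 and 3.87 FPKM against 0.480 to 3.24 in the other 5.
Without saline replicate 3, the count of loci with an unadjusted p under 0.05 was 9 for CFA6D against saline (5 higher, 4 lower), 6 for both CFA days against saline and 5 for CFA3D against saline. Leaving out saline replicate 1 instead gave 0 for CFA6D and 6 for CFA3D. The share of all other noncoding transcripts with the same library left out was not computed, so these counts are not a result about the loci.

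The other lncRNAs annotated within the domain were low. Gm26945, which lies within the span of Rian, was at 1.67 to 2.80 FPKM, and B830012L14Rik, between Rian and Mirg, at 1.56 to 2.38. Gm26945 had a log2 difference of 0.42 for CFA6D against CFA3D (unadjusted p = 0.0268 in limma, adjusted 0.806). Of the coding genes of the domain and its flanks, 7 of 8 were tested, and 1 had an unadjusted p under 0.05 at CFA3D (4.45% of all 16110 mRNA gene sums), 1 at CFA6D (11.1% of all), 0 for CFA6D against CFA3D (7.41% of all) and 1 for both days (8.19% of all, Dync1h1 again). The former was Ppp2r5c, a regulatory subunit of phosphatase PP2A, with 0.17, and the latter Dync1h1, the heavy chain of the dynein motor, with 0.32. Rtl1, the retrotransposon-like gene antisense to part of the cluster, was at 7.27 to 9.10 FPKM, with -0.08 at CFA3D and -0.06 at CFA6D. Dlk1 differed by -1.84 ± 1.17 (SE) at CFA3D and -0.41 ± 1.17 at CFA6D, with the high value of saline replicate 3 behind both, and neither passed the test. Dio3, the deiodinase that inactivates thyroid hormone, was below the minimum of 0.1 FPKM. Among 11 other imprinted lncRNAs, 0 had an unadjusted p under 0.05 in any of the 4 comparisons in limma.

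Genes of the nuclear bodies were read from lists fixed by name. Of 20 paraspeckle proteins, 2 were higher at CFA3D with an unadjusted p under 0.05 and 0 lower, and 4 were higher and 1 lower at CFA6D. The shares of all mRNA gene sums that were higher were 3.64% and 8.21%, and of those that were lower 0.807% and 2.85%. The median log2 difference of the list was 0.050 at CFA3D and 0.069 at CFA6D, against 0.055 and 0.026 for all mRNA gene sums. No adjusted p was under 0.05, on this list or among all mRNA gene sums (0%). Dazap1, an RNA-binding protein of paraspeckles, was at 20.2 to 20.6 FPKM in saline, 22.4 to 24.8 in CFA3D and 23.1 to 28.3 in CFA6D, with 0.23 and 0.31 on the log2 scale (unadjusted p = 0.0280 and 0.00602 in limma). Smarca4, the ATPase of the SWI/SNF remodeller, was at 15.1 to 17.4 FPKM in saline and 19.1 to 21.8 in CFA6D, with 0.34 (unadjusted p = 0.00280 in limma, adjusted 0.181). Tardbp, which encodes TDP-43, was at 31.1, 16.1 and 13.1 FPKM in saline and 27.8 to 34.2 in CFA3D, so that saline replicate 1 fell within the CFA range. The cold-inducible Rbm3 had 0.32 at CFA6D. The splicing factor Srsf10, which is on both nuclear body lists, had -0.21 at CFA6D and -0.32 for CFA6D against CFA3D. The core proteins Sfpq, Nono and Pspc1, named for their role after their values were seen, had no unadjusted p under 0.05 in any comparison. Of 20 nuclear speckle proteins, 0 had an unadjusted p under 0.05 at CFA3D, and at CFA6D 2 were higher, the scaffold gene Srrm2 with 0.20 and Srrm1 with 0.16, and 1 lower, Srsf10. Of 12 coding neighbours of Malat1 and Neat1, 1 was higher on both days, the protease gene Capn1, at 22.8 to 26.8 FPKM in saline, 28.1 to 29.2 in CFA3D and 28.3 to 35.5 in CFA6D (0.24 and 0.39, adjusted p = 0.997 and 0.182 in limma). The list of 16 factors of imprinting and chromatin, with several other imprinted coding genes, had 0 at CFA3D, 0 at CFA6D and 1 for CFA6D against CFA3D, the maintenance methyltransferase Dnmt1 with 0.33. Of 6 regulators of paraspeckles, only Rbm3 had an unadjusted p under 0.05, at CFA6D and over both days. At CFA6D 3 of 10 sensory neuron markers were higher (8.21% of all mRNA gene sums) and 3 of 6 fibroblast and 1 of 7 macrophage markers lower (2.85% of all) with an unadjusted p under 0.05. The neuron marker sum was 2438 to 3066 FPKM in saline and 3050 to 3676 in CFA6D, and the fibroblast marker sum 419.7 to 533.1 and 317.6 to 533.9. The macrophage marker sum was 88.0 to 107.5 FPKM in saline, 74.3 to 132.6 in CFA3D and 50.9 to 82.7 in CFA6D. The highest CFA6D value lay just below the lowest saline value, and how often mRNA gene sums are apart in this way is not given here. The part of these cell types in the differences above was not tested.

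The gene sums most alike to each member over the 9 libraries were searched among 14204 gene sums whose mean reached 1 FPKM, by Pearson's r on log2 values, as a description. For Malat1 they were Igsf8 (r = 0.912), Ankrd42 (0.905) and Avp (0.884). For Neat1 they were Tacc1 (0.944), Myh11 (0.932) and Rasl11b (0.931), for Meg3 Hmgn3 (0.951), Hook2 (0.945) and the lncRNA Gm27000 (0.940), and for Mirg Gria2 (0.968), Chgb (0.934) and Mdm1 (0.929). For Rian they included Greb1l (0.919) and Stt3a (0.909). Libraries share groups, depth and tissue composition, and the highest of so many values is high by selection.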

How the data were processed

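TG tissue of 3 mice was pooled per library, ribosomal RNA was depleted and stranded total RNA libraries were sequenced in pairs. Per the study's methods, reads were trimmed with Trimmomatic and mapped to GRCm38 with CLC Genomics Workbench, while the submitters' processing notes name Bowtie 0.12.2 and mm8, with no role given. How FPKM was computed, and how reads shared by transcripts were divided, is not given in the sources used here.

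The deposited values are FPKM per transcript, in 3 tables (lncRNA, mRNA and other noncoding RNA). Transcript identifiers were matched to gene names in the annotation, and FPKM was summed per gene over matched transcripts. Read pairs were estimated from the spacing of low values and cover counting error only. Gene sums and transcripts averaging 0.1 FPKM or more entered the test, as log2(FPKM + 0.1) with limma 3.58.1 in R 4.3.3, with a trended prior and all 9 libraries in each fit, which was checked on simulated data. Differences are on this scale, which understates the change of low genes. The unadjusted threshold of 0.05 follows the study, and Benjamini-Hochberg adjustment was over each whole table. Single values were compared with two-sided exact permutation tests over libraries (scipy 1.17.1). Replicate numbers did not pair the samples.

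The 5 genes and the gene lists were chosen with earlier results of these data known. Named were the 3 highest transcripts per gene, those with an unadjusted p under 0.05, up to 6 genes per related list by the same threshold, the 6 highest small RNA loci and the 3 most alike gene sums per member, of which 1 is not reported here, and exceptions are marked. Alternatives covered the pseudocount, the minimum, normalization, the samples fitted, the share's denominator and each library left out.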

Additional observations from a re-analysis of the deposited data

Results flagged for a closer look

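For 5 transcripts the test of CFA6D against CFA3D gave an unadjusted p under 0.05 in limma, as for 5.84% of all 5672 lncRNA transcripts tested. None passed after adjustment (adjusted p = 0.821 to 0.846). With 1 library left out, the count of such transcripts ranged from 0 to 5.

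Meg3 ENSMUST00000166636 was at -0.19 on the log2 scale against saline at CFA3D and at 0.48 at CFA6D, a difference of 0.67. Mirg ENSMUST00000182300 was at -0.95 and 0.45, a difference of 1.40, and Mirg ENSMUST00000183068 at -1.07 and 0.12, a difference of 1.18. Rian ENSMUST00000182119 was at 0.26 and -1.38, a difference of -1.64. For Rian ENSMUST00000182737 the fitted values were -1.02 and -2.48, a difference of -1.46, which depends on the pseudocount because the transcript is listed at 0 in all CFA6D libraries and in CFA3D replicate 3. These 5 are among 41 transcripts tested, and 0 of the 5 gene sums had an unadjusted p under 0.05 in this comparison. Groups of 3 were too small for a test of single outlying libraries.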

How the results depend on the processing

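Alternatives were a pseudocount of 0.01 or 1, no filter or a minimum of 1 FPKM, quantile normalization, libraries shifted to the same median, fitting only the groups compared, the highest transcript in place of the sum, and each library left out. The cause of the changes below was not tested.

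The gene sums with an unadjusted p under 0.05 stayed at 0 except for 1 (Neat1) at CFA6D after quantile normalization, and 0 to 1 at CFA3D with 1 library left out. Quantile normalization gives Malat1 and Meg3 a difference of 0 in all 4 comparisons. Directions turned as follows on the log2 scale. With the highest transcript, Meg3 was 0.0119 at CFA3D, 0.11 at CFA6D and 0.0586 for both days, and Mirg -0.0897 for CFA6D against CFA3D. After quantile normalization Mirg was 0.0117 at CFA6D and Rian 0.0036 for CFA6D against CFA3D. With libraries shifted to the same median, Meg3 was 0.0022 at CFA6D.

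With 1 library left out, Meg3 ranged from -0.29 to 0.0153 at CFA3D, from -0.14 to 0.17 at CFA6D (turning without saline replicate 3 or CFA6D replicate 6), from -0.22 to 0.0907 for both days and from -0.00064 to 0.25 for CFA6D against CFA3D. Mirg ranged from -0.18 to 0.12 at CFA6D and from -0.25 to 0.0480 for both days. Malat1 ranged from -0.0737 to 0.0184 for CFA6D against CFA3D, Neat1 from -0.0188 to 0.10 at CFA3D and Rian from -0.14 to 0.0126 at CFA3D.

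The count of transcripts at CFA3D was 0 with a pseudocount of 0.01, a minimum of 1 FPKM, quantile normalization, the median shift or only the groups compared. At CFA6D it was 1 with a minimum of 1 FPKM. For both days it was 2 with a pseudocount of 1, no filter, quantile normalization or the median shift, and 0 with a minimum of 1 FPKM. With 1 library left out it was 0 to 4 at CFA3D, 1 to 5 at CFA6D, 0 to 5 for CFA6D against CFA3D and 1 to 3 for both days.

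Related lists together had 4, 9, 5 and 6 genes with an unadjusted p under 0.05 in limma (CFA3D, CFA6D, CFA6D against CFA3D, both days). Of all mRNA gene sums, 4.45%, 11.1%, 7.41% and 8.19% had one in the same order, and the counts are not read as a result about the lists. They were 1 to 8, 4 to 11, 2 to 7 and 3 to 8 with 1 library left out, without saline replicate 3 being 1, 7, 7 and 4. For small RNA loci the ranges were 1 to 6, 0 to 9, 3 to 6 and 0 to 6. No shares over all features were computed with a library left out.

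The share of Malat1 at CFA6D against saline was 1.70 percentage points higher without MSTRG.2605.1, and ranged from -10.9 to 1.16 with 1 library left out. For Neat1 at CFA3D the difference was 0.000285 percentage points without the other members and 0.000600 without MSTRG.2605.1, and at CFA6D 0.00098 over lncRNA and mRNA and 0.0638 without MSTRG.2605.1. With 1 library left out it ranged from -0.0158 to 0.0166 at CFA3D and from -0.128 to 0.0846 at CFA6D, and for Meg3 at CFA3D from -0.810 to 0.00516.

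Replicate numbers 1 to 3 of saline and CFA3D had correlations of 0.0416, -0.00372 and 0.0618 and were not taken as pairs. With the replicate block, 0 gene sums and 1 transcript passed at CFA3D, and Mirg ENSMUST00000183068 no longer did (unadjusted p of 0.1004 in limma).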
